A study of Mus musculus with 6 samples.

Results

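The interferon-stimulated genes described here are a list of 44, of which 40 are known as interferon-induced and 4 are receptor subunits. The list was followed by gene symbol through a table of 54532 gene IDs, and each of the 44 symbols was found once. Retinal RNA was sequenced from 3 OIR and 3 normal samples, all from C57BL/6J mice labelled WT and aged 17 days after birth, with no transgene or other agent in the labels. OIR stands by common usage for oxygen-induced retinopathy, in which an early period in high oxygen stops vessel growth and the return to room air leaves the retina hypoxic; the sources used here do not give the oxygen schedule or say whether animals were pooled. The study looked for a target tied to hypoxia-driven vessel growth in the retina. The labels do not state that the samples were separate animals. The p-values set the group difference against the spread between these samples, which may thus be partly technical.

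Interferons are secreted antiviral cytokines. Type I interferons bind the receptor formed by Ifnar1 and Ifnar2, and interferon gamma binds the one formed by Ifngr1 and Ifngr2. Both receptors act through Janus kinases. The type I receptor uses Stat2 and Irf9, parts of a complex that binds the interferon-stimulated response element of its target genes, whereas interferon gamma acts mainly through gamma-activated sites. The induced genes encode sensors of viral RNA, membrane and nucleotide-directed restriction factors, immunity GTPases and feedback inhibitors, and in the retina they are known to be expressed by microglia, vessels and glia.

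Libraries held 15818168 to 17163513 counts. Gnat1, which encodes the rod transducin subunit and marks the tissue as retina, had 6670 to 7430 CPM (counts scaled to library size with TMM factors) in OIR libraries and 9420 to 10200 CPM in normal libraries. Lens genes summed to 7780 CPM in the library OIR 3, against 10.4 to 514 CPM in the other 5. By Xist and Y-linked counts, OIR 2, Normal 1 and Normal 3 were male and OIR 1, OIR 3 and Normal 2 female, so the sexes were unequally spread over the groups. Among the normal libraries, Normal 1 had the highest level of 31 of the 44 listed genes (70.5%), against 40% of all genes tested, and among the OIR libraries OIR 1 had the highest level of 27 (61.4%), against 32% of all genes tested.

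At an adjusted p under 0.05 in edgeR's quasi-likelihood test over 17108 genes, 14 of the 44 passed as higher in OIR retina and 0 as lower, 26 did not pass and 4 had too few counts to be tested. The 14 are 35% of the 40 tested, where 11.1% of all genes tested were higher, 8.73% lower and 19.8% either. No listed gene was lower at an unadjusted p under 0.05 either (0 in edgeR), and DESeq2 and limma-voom each called 0 lower. They called 12 and 11 higher, which are 27.9% and 27.5% of the listed genes tested, against 9.76% and 11.1% of all genes tested. The median log2 fold change of the 40 was 0.60, against 0.01 for all genes tested. Of the 40, 7 (Isg15, Ifit1, Ifitm1, Oas1a, Rsad2, Isg20 and Iigp1) reached the count minimum in all 3 OIR libraries but in fewer than 3 normal libraries, so that they were tested through the OIR libraries, and Ifi44 reached it in 2 of each; among the 33 genes without these 7 the median was 0.49 and 12 were higher (36.4%). Every OIR library was above every normal library for 18 of the 40 (45%), against 18.7% of all genes tested. Summed over the 44 genes, OIR 1, 2 and 3 held 560, 504 and 533 CPM, and Normal 1, 2 and 3 held 439, 386 and 404 CPM. In whole tissue, more cells of a type and more mRNA per cell cannot be told apart.

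**Figure D1:**
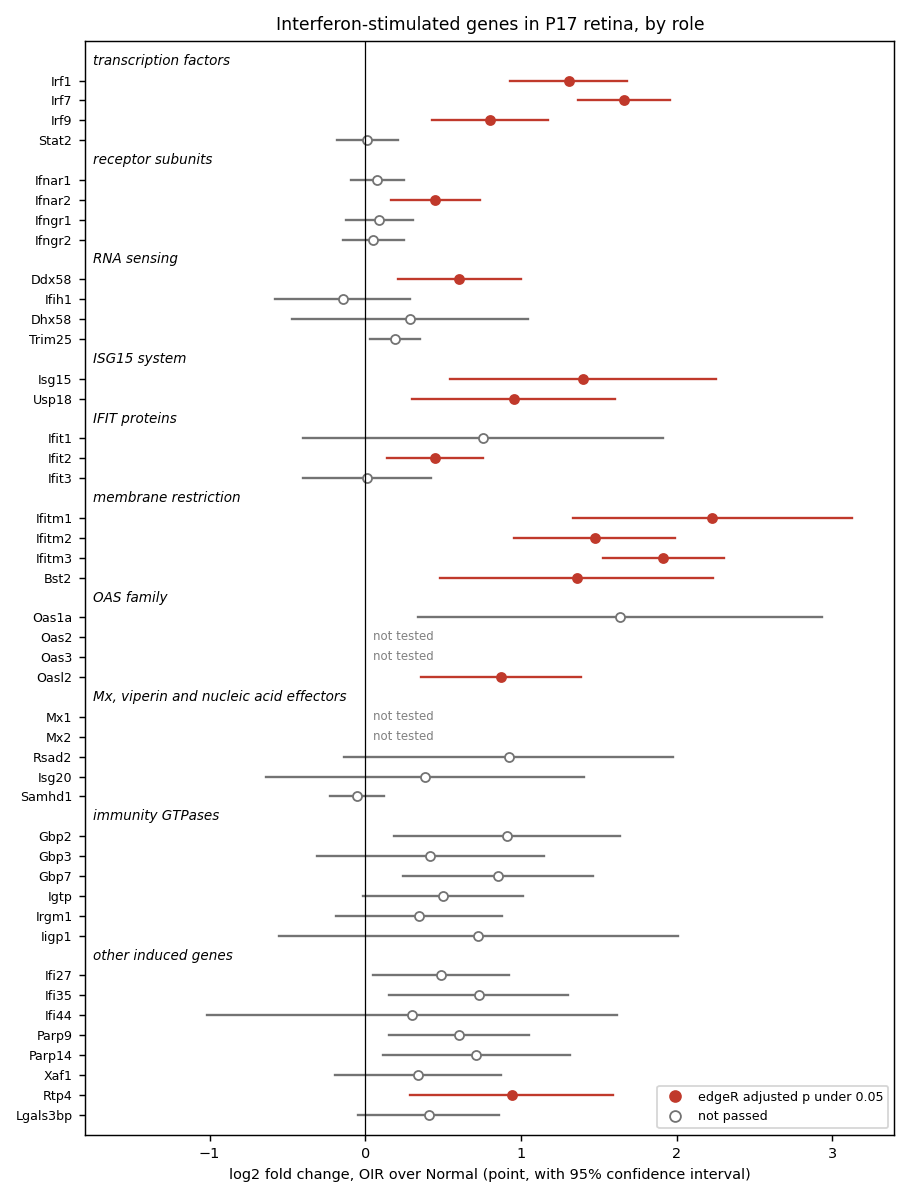
Log2 fold change of OIR over normal retina for each listed gene, grouped by role, with its 95% confidence interval from the edgeR fit; red marks an adjusted p under 0.05 and 4 genes were not tested. All 4 membrane restriction genes and 3 of 4 transcription factors lie to the right in red, whereas none of the 6 immunity GTPases passed.

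The 14 calls fell into a firm and a borderline set. Irf1, Irf7, Irf9, Ifitm1, Ifitm2 and Ifitm3 passed at an adjusted p under 0.01 and kept their call under all 14 other settings that were run on single genes. The other 8 (Ifnar2, Ddx58, Isg15, Usp18, Ifit2, Bst2, Oasl2 and Rtp4) had edgeR adjusted p between 0.01 and 0.05, and each lost its call under at least 4 of these settings, sex as a covariate among them. Without OIR 1, or without Normal 3, or with sex as a covariate, 6 listed genes were higher; without Normal 2, 7 were, and without OIR 3, 9. Over all genes tested, 1901 were higher with all libraries, 1328 without OIR 1, 1237 without Normal 3, 1612 with sex as a covariate, 1983 without Normal 2 and 1537 without OIR 3. As shares, that is 14.3% of the listed genes tested against 7.58% of all without OIR 1, 14.3% against 7.02% without Normal 3, 15% against 9.42% with sex as a covariate, 16.7% against 11.3% without Normal 2 and 22.5% against 8.77% without OIR 3. All 14 had a positive difference both among male and among female libraries. For all but Bst2 this was fixed in advance, since every OIR library lay above every normal library. OIR 2 was the only male OIR library and Normal 2 the only female normal library.

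The promoters of 6 of the genes are shown because they carry the 2 motif classes and differ in what the transcripts did: Irf1, Isg15 and Ifitm2 were higher in OIR retina, and Ifit1, Ifit3 and Rsad2 did not pass. Each stretch is the 160 bases before the RefSeq start on GRCm38.p6 (mm10), read on the gene's strand. Capitals mark GAAA, 2 bases of any kind and GAAA, or TTTC, 2 bases of any kind and TTTC, the core of an interferon-stimulated response element on either strand, and TTCNNNGAA, a gamma-activated site, which reads alike on both strands.
Irf1: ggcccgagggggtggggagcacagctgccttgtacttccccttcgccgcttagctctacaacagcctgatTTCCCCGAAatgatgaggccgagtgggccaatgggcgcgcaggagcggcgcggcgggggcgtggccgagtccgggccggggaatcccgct
Isg15: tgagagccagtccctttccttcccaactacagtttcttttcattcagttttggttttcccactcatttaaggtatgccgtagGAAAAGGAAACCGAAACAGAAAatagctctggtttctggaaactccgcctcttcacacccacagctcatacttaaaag
Ifitm2: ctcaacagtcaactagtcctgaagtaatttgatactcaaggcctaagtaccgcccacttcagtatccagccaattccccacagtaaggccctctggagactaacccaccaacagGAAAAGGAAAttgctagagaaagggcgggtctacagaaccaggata
Ifit1: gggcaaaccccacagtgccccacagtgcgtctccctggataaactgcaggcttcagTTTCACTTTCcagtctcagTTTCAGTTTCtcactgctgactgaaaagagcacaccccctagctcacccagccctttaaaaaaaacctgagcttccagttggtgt
Ifit3: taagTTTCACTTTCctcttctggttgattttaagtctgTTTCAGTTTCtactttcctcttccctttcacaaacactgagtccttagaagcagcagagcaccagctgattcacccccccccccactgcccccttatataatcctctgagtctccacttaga
Rsad2: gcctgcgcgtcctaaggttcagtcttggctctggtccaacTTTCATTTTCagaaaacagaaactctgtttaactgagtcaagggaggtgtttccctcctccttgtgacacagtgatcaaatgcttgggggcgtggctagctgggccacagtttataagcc
The stretches lie at chr11:53769854-53770013 on the plus strand, chr4:156200819-156200978 on the minus strand, chr7:140955962-140956121 on the minus strand, chr19:34640729-34640888 and chr19:34583369-34583528 on the plus strand, and chr12:26456453-26456612 on the minus strand. Isg15 shows 3 overlapping response element matches, Ifit1 and Ifit3 show 2 each, Ifitm2 and Rsad2 show 1 each, and Irf1 shows 1 gamma-activated site.

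RefSeq windows from 250 bases before to 50 bases after the start were found for 34 of the 44 genes. The response element letters stood in 17 of the 34 (50%), against 3.99% of the 27025 gene symbols with a window, and the gamma-activated site letters in 12 (35.3%), against 9.55%; 5 genes held both, and in Ifitm3 and Bst2 the 2 motifs overlapped. Of the 16 tested genes with a response element match, 5 were higher (Ddx58, Isg15, Ifitm2, Ifitm3 and Bst2) and 11 did not pass, with a median log2 fold change of 0.80. Of the 17 tested genes without one, 7 were higher (Irf1, Irf7, Irf9, Ifnar2, Ifit2, Ifitm1 and Oasl2) and 10 did not pass, with a median of 0.41. The genes with a match include Isg15, Ifit1, Oas1a and Rsad2, which were tested through the OIR libraries. Those without one include Ifitm1 and Isg20, tested in the same way, and the receptor subunits Ifnar1, Ifnar2, Ifngr1 and Ifngr2. The sets thus differ in make-up, and whether a match goes with the change was not tested. A match describes letters in these windows and is no measure of binding.

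Among the transcription factors, the 3 interferon regulatory factors rose and Stat2 did not pass. Irf7, which amplifies type I interferon production and is itself induced by it, had 27.6, 26.8 and 23.4 CPM in OIR 1, 2 and 3, against 9.29, 8.15 and 7.07 CPM in Normal 1, 2 and 3. The lowest OIR library thus lay far above the highest normal one, and the change was 3.17-fold (log2 1.67, standard error 0.134, edgeR adjusted p of 1.69e-05). Irf1, a factor induced through gamma-activated sites and the gene whose promoter shows one above, had 11.7, 9.49 and 8.70 CPM in OIR libraries and 3.89, 3.95 and 4.24 CPM in normal libraries. The normal libraries lay close together and every OIR library far above them, with a fold of 2.47 (log2 1.31, standard error 0.169, edgeR adjusted p of 0.000403).

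Irf9, the DNA-binding partner of Stat2, had 23.4, 33.4 and 22.4 CPM in OIR libraries and 17.7, 14.4 and 13.3 CPM in normal libraries. The groups did not overlap, and OIR 2 stood above the other OIR libraries. The fold was 1.74 (edgeR adjusted p of 0.00729), and without OIR 2 the log2 change was 0.59 in place of 0.80. Among the fits that left out a library, the edgeR adjusted p of Irf9 reached 0.0477. Stat2, which joins it in the complex, had 597, 726 and 667 counts in OIR libraries and 667, 645 and 574 in normal libraries. The groups overlapped throughout, with a log2 change of 0.01 and a 95% interval of −0.18 to 0.21. Its sign turned without OIR 2, OIR 3 or Normal 3. An exact two-sided permutation test of mean log2 CPM gives p = 0.1 for any gene whose groups do not overlap, the smallest that 3 samples against 3 allow.

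**Figure D2:**
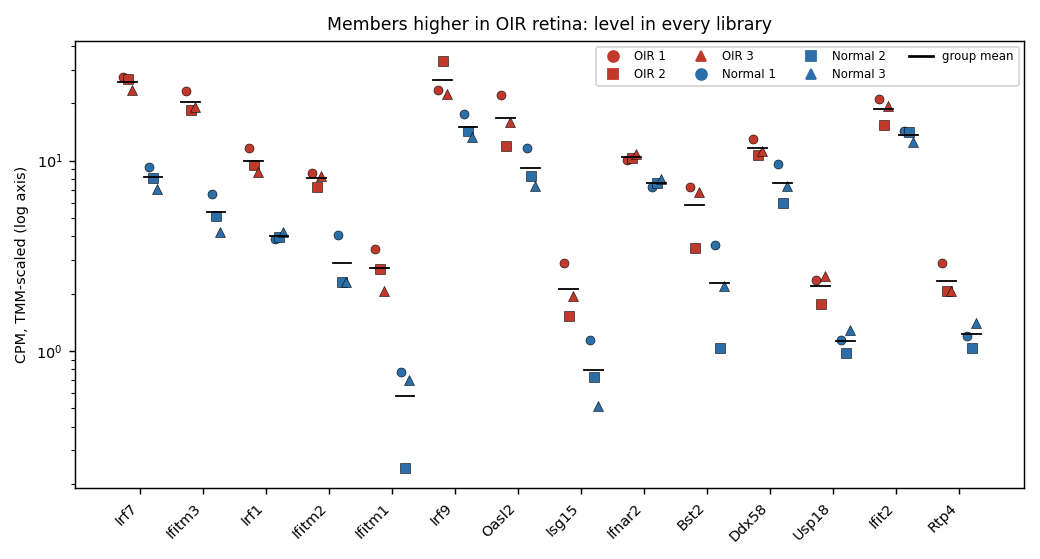
CPM on a log axis in each of the 6 libraries for the 14 genes higher in OIR retina, ordered by adjusted p, with bars at the group means. OIR libraries lie above all normal libraries for every gene plotted except Bst2, where OIR 2 at 3.48 CPM and Normal 1 at 3.59 CPM cross.

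The membrane restriction genes rose together, and 3 of them are neighbours. Ifitm1, Ifitm2 and Ifitm3 encode small membrane proteins that block the fusion of incoming viruses and lie within chromosome 7, 140954837 to 141010770 (mm10). Ifitm3 had 23.2, 18.5 and 19.1 CPM in OIR libraries and 6.71, 5.11 and 4.24 CPM in normal libraries. The separation was wide and the fold 3.77 (log2 1.92, standard error 0.176, edgeR adjusted p of 4.05e-05). Per length, Ifitm3 was the most abundant of the 44 transcripts in OIR retina, with 112 ± 17.1 TPM (counts scaled to the table's gene length and to library size), against 28.3 ± 4.8 TPM in normal retina (SD, n = 3 each).

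Ifitm2 had 8.66, 7.31 and 8.29 CPM in OIR libraries and 4.07, 2.31 and 2.31 CPM in normal libraries, with Normal 1 the highest of its group. Its fold was 2.78 (edgeR adjusted p of 0.00141). Ifitm1 was low, with 58, 46 and 35 counts in OIR libraries and 13, 4 and 11 in normal libraries. No OIR library came near the normal range, and the fitted fold was 4.69 (log2 2.23, standard error 0.406, edgeR adjusted p of 0.00328); it met the count minimum through the OIR libraries. Of the exonic bases of Ifitm2, 40.9% are shared with Gm45717, and 36.2% of the Ifitm1 transcript is at least 97% identical to Gm7676, so reads of these pairs may be split or lost.

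Bst2 encodes tetherin, which holds budding virions at the cell surface. It had 7.25, 3.48 and 6.82 CPM in OIR libraries and 3.59, 1.03 and 2.19 CPM in normal libraries, so that the groups overlapped by 1 pair. The fold was 2.57 (log2 1.36, edgeR adjusted p of 0.0353). The call was lost without OIR 1 (1.18, adjusted p of 0.132), OIR 3 (1.22, 0.0856), Normal 2 (1.01, 0.0685) or Normal 3 (1.33, 0.134), and the log2 difference was 0.31 among male and 2.73 among female libraries.

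Of the receptor subunits, Ifnar2 rose slightly and the other 3 did not pass. Ifnar2, the high-affinity chain of the type I receptor, had 10.1, 10.3 and 10.9 CPM in OIR libraries and 7.25, 7.66 and 7.97 CPM in normal libraries. Both groups were tight and separate, with a fold of 1.37 (log2 0.45, standard error 0.130, edgeR adjusted p of 0.0339), yet the adjusted p lay between 0.0597 and 0.116 whichever library was left out, and 9.5% of its exonic bases are shared with Gm21970. Ifnar1 had 78.1, 76.0 and 78.0 CPM in OIR libraries and 70.2, 70.4 and 79.4 CPM in normal libraries. Its log2 change of 0.08 had a 95% interval of −0.09 to 0.25. Ifngr1, the ligand-binding chain for interferon gamma, had 36.7, 38.2 and 41.8 CPM in OIR libraries and 34.9, 33.5 and 41.3 CPM in normal libraries, which overlapped (log2 0.09, interval −0.13 to 0.31). Ifngr2, its partner, had a log2 change of 0.05 with an interval of −0.14 to 0.25, and its sign turned without OIR 3 or Normal 2.

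Per length, the receptor chains ranked alike in both groups. Ifngr1 had 51.2 ± 2.35 TPM in OIR and 46.5 ± 6.79 TPM in normal retina, and Ifnar1 had 48.8 ± 1.57 and 44.7 ± 5.28 TPM in the same order (SD, n = 3 each); these neighbours did not differ beyond their spread. Ifngr2 followed with 35.3 ± 1.72 TPM in OIR and 32.7 ± 1.16 TPM in normal retina. Ifnar2 was lowest, with 11.7 ± 0.214 TPM in OIR and 8.30 ± 0.945 TPM in normal retina. All 4 chains were thus detected in both groups, and the genes Ifnar2, Ifnar1 and Ifngr2 lie within chromosome 16, 91372783 to 91565623 (mm10).

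**Figure D3:**
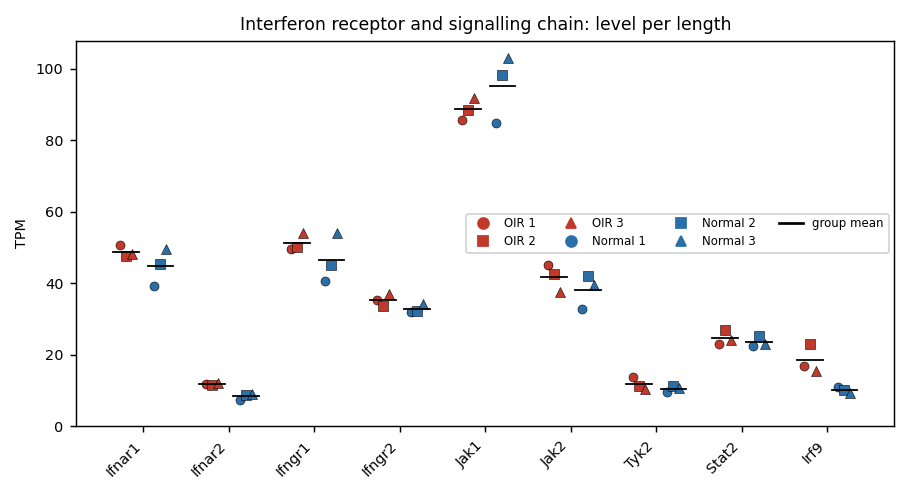
TPM in each of the 6 libraries for the receptor subunits, the Janus kinases, Stat2 and Irf9, with bars at the group means. OIR and normal libraries separate clearly for Ifnar2 and Irf9, whereas Stat2 lies at 24.7 TPM in OIR and 23.6 TPM in normal retina.

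Of the 4 RNA sensing genes, 1 passed. Ddx58, which encodes the cytosolic RNA sensor RIG-I, had 13.0, 10.7 and 11.2 CPM in OIR libraries and 9.59, 5.96 and 7.39 CPM in normal libraries. It was higher in OIR retina by 1.52-fold (edgeR adjusted p of 0.0376), with Normal 1 closest to the OIR range, and it passed in only 1 of the 6 fits that left out a library, the one without Normal 1 (log2 0.80, adjusted p of 0.00789). Ifih1, the sensor MDA5, had 6.95, 4.48 and 5.52 CPM in OIR libraries and 6.65, 6.63 and 5.47 CPM in normal libraries, overlapping fully (log2 −0.15, 95% interval −0.58 to 0.29). Dhx58, a related helicase, had 24, 29 and 26 counts in OIR libraries and 30, 19 and 13 in normal libraries, with Normal 1 the highest of all (log2 0.29, interval −0.47 to 1.05). Trim25, the ubiquitin ligase that activates RIG-I, had 42.2, 43.9 and 40.8 CPM in OIR libraries and 38.3, 36.4 and 36.5 CPM in normal libraries. These groups did not overlap, but the difference was small (log2 0.19, edgeR adjusted p of 0.0974) and passed only with library totals alone.

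Isg15, a ubiquitin-like protein attached to other proteins in interferon-treated cells, and Usp18, the protease that removes it and blocks Ifnar2 signalling, were both low and both higher in OIR retina. Isg15 had 49, 26 and 33 counts in OIR libraries and 19, 12 and 8 in normal libraries. Its groups did not overlap, OIR 1 stood out above the rest, and the fold was 2.64 (log2 1.40, standard error 0.386, edgeR adjusted p of 0.0273); without OIR 1 the log2 change was 1.11 (adjusted p of 0.137), without Normal 2 1.34 (0.0637) and without Normal 3 1.17 (0.118). Usp18 had 40, 30 and 42 counts in OIR libraries and 19, 16 and 20 in normal libraries. The fold was 1.94 (edgeR adjusted p of 0.0442), and no fit that left out a library kept the call (log2 0.85 to 1.08, lowest adjusted p 0.0594).

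Of the 3 IFIT genes, which encode proteins that bind foreign RNA and block its translation, 1 passed. Ifit2 had 21.1, 15.4 and 19.5 CPM in OIR libraries and 14.3, 14.2 and 12.5 CPM in normal libraries. The groups came close without overlapping, with a fold of 1.36 (edgeR adjusted p of 0.0442), and the call held in 1 of the 6 fits without a library, the one without OIR 2 (log2 0.56, adjusted p of 0.0214). Ifit3 had 8.31, 6.78 and 6.64 CPM in OIR libraries and 8.87, 5.90 and 6.75 CPM in normal libraries, so the highest value of all was a normal library (log2 0.01, 95% interval −0.40 to 0.43); its sign turned without OIR 1, Normal 2 or Normal 3, and 97.4% of its transcript has a near-identical copy in Ifit3b.

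Ifit1, which recognises RNA caps lacking methylation, did not pass. It had 69, 25 and 34 counts in OIR libraries and 44, 21 and 8 in normal libraries, with OIR 1 and Normal 1 the highest of their groups. Its log2 change of 0.75 had an interval of −0.40 to 1.91 (edgeR adjusted p of 0.359). All 3 genes lie within chromosome 19, 34550694 to 34650009 (mm10), and the promoters printed above show the response element letters in Ifit1 and Ifit3.

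In the OAS family, whose enzymes make the activator of RNase L, Oasl2 rose and the others had at most 20 counts in any library. Oasl2, an OAS-like protein with ubiquitin-like domains, had 375, 204 and 272 counts in OIR libraries and 196, 136 and 114 in normal libraries. OIR 2 was only just above Normal 1, and the fold was 1.83 (edgeR adjusted p of 0.0231), lost without OIR 1 (log2 0.61, adjusted p of 0.103), Normal 2 (0.80, 0.056) or Normal 3 (0.74, 0.119). Oas1a had 10, 13 and 20 counts in OIR libraries and 9, 2 and 2 in normal libraries and did not pass (log2 1.64, edgeR adjusted p of 0.0775), though without Normal 1 it did (2.68, adjusted p of 0.019); its transcript has a near-identical copy in Oas1g along its full length. Oas2 had 8, 4 and 14 counts in OIR libraries and 20, 8 and 3 in normal libraries, and Oas3 had 6, 4 and 5 in OIR libraries and 15, 5 and 2 in normal libraries. Neither was tested, and for both the highest count was in Normal 1.

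Of the Mx, viperin and nucleic acid effector genes, none passed in edgeR, where 0 of the 3 tested were also past an unadjusted p of 0.05, and DESeq2 and limma-voom called 0. Mx1 and Mx2 belong to a family of dynamin-like GTPases, and Mx2 is annotated as a polymorphic pseudogene. They had 12 and 21 counts over the OIR libraries and 9 and 26 over the normal libraries, and were not tested. Rsad2, the radical enzyme viperin, had 37, 24 and 30 counts in OIR libraries and 30, 7 and 9 in normal libraries. Only Normal 1 reached into the OIR range: the log2 change was 0.92 (edgeR adjusted p of 0.215), and 1.82 without Normal 1 (adjusted p of 0.0145). Leaving out Normal 1 removes the only overlap, and the other normal libraries, with 7 and 9 counts, lay below the count minimum. Samhd1, a nucleotide phosphohydrolase, had 36.1, 34.1 and 34.0 CPM in OIR libraries and 35.2, 35.3 and 37.6 CPM in normal libraries (log2 −0.05, 95% interval −0.23 to 0.12). The exonuclease gene Isg20 had 13, 15 and 20 counts in OIR libraries and 5, 18 and 12 in normal libraries, overlapping (log2 0.38).

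The immunity GTPases attack the vacuoles of intracellular pathogens and are induced strongly by interferon gamma, and none of the 6 genes passed. All 6 log2 changes were positive, from 0.35 for Irgm1 to 0.91 for Gbp2; edgeR had 2 of them past an unadjusted p of 0.05, DESeq2 called 1 higher (Gbp7) and limma-voom 0. Gbp7 came closest, with 11.4, 6.07 and 6.11 CPM in OIR libraries and 3.42, 5.41 and 4.24 CPM in normal libraries; the groups did not overlap, but OIR 1 was nearly double the other OIR libraries (log2 0.85, edgeR adjusted p of 0.0523). It passed without OIR 3 (0.99, adjusted p of 0.0395) and without Normal 2 (1.04, 0.038), and also with library totals alone or no filter. Of the exonic bases of Gbp7, 11.3% are shared with Gm43802. Gbp2 had 6.90, 3.13 and 5.23 CPM in OIR libraries and 3.12, 3.28 and 1.67 CPM in normal libraries, and passed without OIR 2 (1.16, adjusted p of 0.0349) and with no filter (0.91, 0.0045). Gbp3, Igtp, Irgm1 and Iigp1 overlapped between groups, with adjusted p from 0.165 to 0.432. Iigp1 had 25, 22 and 24 counts in OIR libraries, which were level, and 28, 2 and 11 in normal libraries, which were not.

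Among the 8 other induced genes, Rtp4 rose and 7 did not pass. Rtp4, a chaperone of chemosensory receptors that is also an antiviral protein, had 49, 35 and 35 counts in OIR libraries and 20, 17 and 22 in normal libraries. The groups did not overlap, the fold was 1.92 (edgeR adjusted p of 0.0475), and no fit without a library kept the call (log2 0.76 to 1.06, lowest adjusted p 0.0656); 13.9% of its exonic bases are shared with Gm45338. Ifi35 and Parp9 were separate between groups and did not pass. Ifi35 had 68, 51 and 79 counts in OIR libraries and 45, 29 and 40 in normal libraries (log2 0.73, edgeR adjusted p of 0.0765). Of the exonic bases, 16.8% of those of Ifi35 are shared with Gm11626 and 9.4% of those of Parp9 with Dtx3l. Parp9, a member of the ADP-ribosyltransferase family that enhances interferon responses, had 10.3, 6.25 and 7.40 CPM in OIR libraries and 5.15, 4.87 and 5.79 CPM in normal libraries (log2 0.60, edgeR adjusted p of 0.0628), and passed without OIR 2 (0.74, adjusted p of 0.0423) and with no filter (0.60, 0.0209).

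The remaining 5 overlapped between groups. Lgals3bp, a secreted galectin-binding glycoprotein, had 19.7, 14.9 and 21.4 CPM in OIR libraries and 19.0, 11.4 and 11.8 CPM in normal libraries. It did not pass (log2 0.41, edgeR adjusted p of 0.197), yet passed without Normal 1 (0.69, adjusted p of 0.015), the normal library that lay within the OIR range. Parp14 and Ifi27 likewise passed without Normal 1, with log2 changes of 0.93 and 0.66 in place of 0.71 and 0.49, and Parp14 also without OIR 2 (0.96) and with no filter (0.71). Xaf1 had a log2 change of 0.34, and Ifi44 one of 0.30 with an interval of −1.02 to 1.62.

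**Figure D4:**
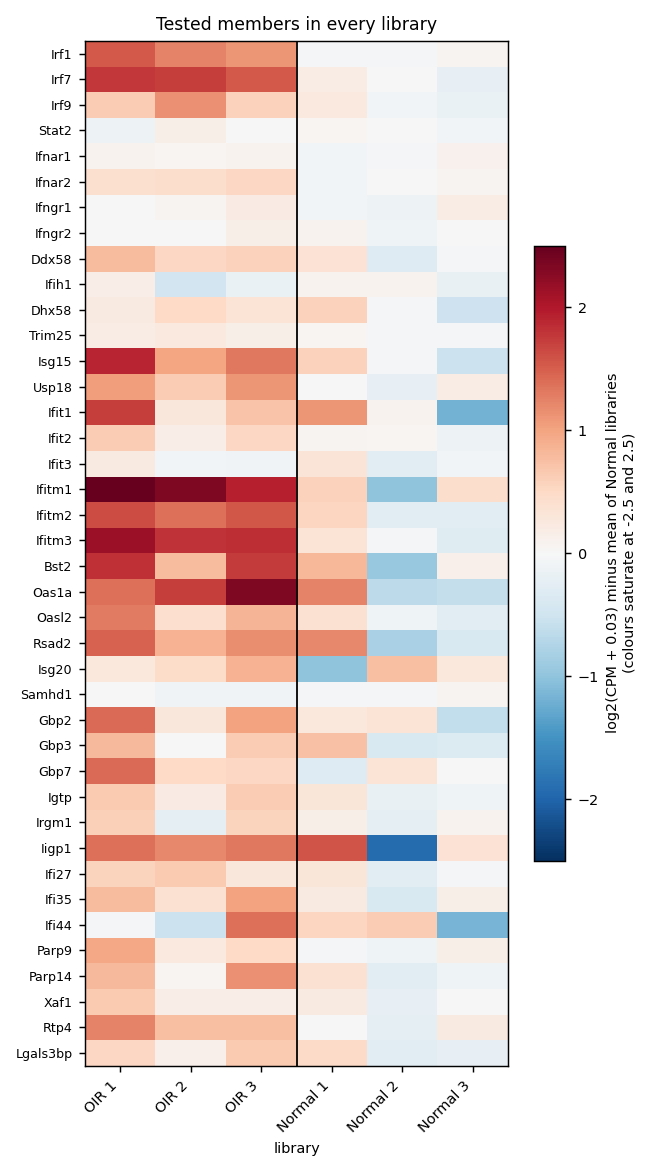
Level of the 40 tested genes in each library as log2(CPM + 0.03) minus the mean of the normal libraries. Irf1, Irf7 and the 3 Ifitm genes are red in every OIR library, and Normal 1 is redder than Normal 2 and Normal 3 in rows such as Ifit1, Rsad2, Oas1a and Iigp1.

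The median log2 fold change of the listed genes was 0.75 without Normal 1, and between 0.47 and 0.63 without any other library. Without Normal 1, 15 listed genes were higher (37.5% of those tested, against 11.9% of all genes tested). Relative to the normal mean, the median of the 40 genes stood at 0.79, 0.40 and 0.64 (log2) in OIR 1, 2 and 3, and at 0.25, −0.11 and −0.05 in Normal 1, 2 and 3.

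The transcripts of the interferons themselves were listed at or near 0. Of 21 ligand genes, 19 had 0 counts in all 6 libraries, among them Ifng, which allows at most 0.0589 CPM over the OIR libraries and 0.0616 CPM over the normal libraries (3 counts, counting error only). Ifnb1 had 3 counts, all in OIR 2, and Ifna16 had 2, both in Normal 3, so no difference in ligand mRNA was detectable at this depth. Reads shared among near-identical interferon alpha genes may go uncounted, and Trex1, a DNA exonuclease gene of wide expression, was also listed at 0 in every library, so that a listed 0 is no measure of absence. Among 11 further receptor and signalling genes, 2 of the 9 tested rose, Stat3 and Stat6, and 0 fell in edgeR. Stat3, the mediator of the gp130 cytokines, had 204, 276 and 174 CPM in OIR libraries and 73.6, 70.7 and 66.7 CPM in normal libraries, a fold of 3.10 (edgeR adjusted p of 2.72e-05). The kinase genes Jak1, Jak2 and Tyk2, added because the chain passes through them, had log2 changes of −0.15, 0.08 and 0.10, and none passed.

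Among 16 genes of interferon production, 7 of the 15 tested rose and 1 fell. Tmem173, the adaptor STING of the cytosolic DNA pathway, had 73, 96 and 82 counts in OIR libraries and 26, 25 and 13 in normal libraries, a fold of 3.75 (edgeR adjusted p of 0.000809). Ticam1 and Myd88, the adaptors of the Toll-like receptors, rose 1.81-fold and 1.63-fold, the transcription factor gene Irf5 2.30-fold, Nlrc5, the transactivator of MHC class I genes, by a fitted 3.11-fold and the RNA receptor gene Tlr7 by a fitted 3.18-fold; their adjusted p in edgeR ran 0.00307 to 0.0351. Nlrc5 and Tlr7 were low, with 82 and 64 counts over the OIR libraries and 25 and 19 over the normal libraries, and both reached the count minimum in 3 OIR libraries and 0 normal libraries. The Nlrc5 call was lost without OIR 3 (log2 1.38) or Normal 3 (1.48), that of Myd88 without OIR 2 (0.54), and that of Tlr7 without OIR 1 (1.21), OIR 3 (1.77), Normal 1 (1.61) or Normal 3 (1.46), and in DESeq2 (1.68) and limma-voom (1.57). Traf3, chosen after its value was seen because it fell, had a log2 change of −0.25 at an adjusted p of 0.0366 in edgeR and kept that call only without Normal 2 (−0.30) among the 6 fits that left out a library.

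Of 12 negative regulators, all tested, 2 rose and 0 fell in edgeR. Socs3, the feedback inhibitor of gp130 and Stat3 signalling, had 25.5, 57.8 and 20.4 CPM in OIR libraries and 2.76, 3.41 and 3.15 CPM in normal libraries, an 11.1-fold rise (edgeR adjusted p of 0.000107). Its OIR values spread widely, with OIR 2 the highest. Irf2bp2, a corepressor, rose 1.31-fold (edgeR adjusted p of 0.00868). Socs1, the feedback inhibitor of the interferon receptors, had 18, 28 and 32 counts in OIR libraries and 20, 14 and 11 in normal libraries, overlapped, and did not pass (log2 0.73, 95% interval −0.07 to 1.52, edgeR adjusted p of 0.192).

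Of 94 other interferon-inducible genes, 56 were tested, of which 18 rose and 1 fell. Besides Serping1, the C1 inhibitor gene, which rose 4.76-fold, these included Irf8 (3.42-fold), a factor of the myeloid lineage, the antiviral zinc-finger gene Zc3hav1 (2.23-fold), Slfn9 (a fitted 8.42-fold), Ifi204 (a fitted 6.00-fold), a DNA-binding protein gene, and the galectin gene Lgals9 (2.36-fold), and their adjusted p in edgeR ran 3.91e-06 to 0.00372. Slfn9 and Ifi204 were low, with 82 and 71 counts over the OIR libraries and 9 and 11 over the normal libraries, and reached the count minimum in 3 OIR libraries and 0 normal libraries. The fall was in Cmpk2, a nucleotide kinase gene named after its value was seen, which lies 12751 bases from Rsad2. It had 13.2, 10.3 and 10.5 CPM in OIR libraries and 22.1, 13.5 and 19.2 CPM in normal libraries, just separate (log2 −0.69, adjusted p of 0.0228 in edgeR); it was lost without OIR 2 (−0.63), OIR 3 (−0.65), Normal 1 (−0.53) or Normal 3 (−0.65). Over all 154 other pathway genes, 92 were tested, 29 were higher and 2 lower. Of all 17108 genes tested, 11.1% were higher and 8.73% lower. Among the 92, 13, with 7 of the 29 higher, reached the count minimum in all 3 OIR libraries and in fewer normal libraries. Without Normal 3, 19 other pathway genes were higher and 0 lower in edgeR, where 7.02% of all genes tested were higher.

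Markers of cell types that can express these genes moved in the same comparison. Microglia and macrophage markers were higher in 14 of 18 cases and summed to 175 to 232 CPM in OIR libraries and 93.2 to 112 CPM in normal libraries. Endothelial markers were higher in 15 of 20 cases and lower in 1 (summed 961 to 1050 CPM in OIR, 630 to 715 CPM in normal), and mural cell markers higher in 10 of 12 (875 to 988 CPM in OIR, 278 to 323 CPM in normal). OIR 1 had the highest summed microglial level of the OIR libraries and Normal 1 the highest of the normal libraries, as they had for the listed genes. Normal 1 was also the highest normal library for the summed endothelial, astrocyte, Müller glia, rod, erythroid, and monocyte and neutrophil markers. It was not for the mural cell, lens, and T, NK and plasmacytoid dendritic cell markers. Of these other lists, OIR 1 was the highest OIR library only for the T, NK and plasmacytoid dendritic cell markers. The part of any of these cells in the changes was not tested. Of the astrocyte markers 3 of 8 were higher and 1 lower (795 to 861 CPM in OIR, 484 to 585 CPM in normal), where Gfap alone, an intermediate filament gene that reactive Müller glia also express, had 213 to 299 CPM in OIR and 20.6 to 24.4 CPM in normal libraries, and of the Müller glia markers 3 of 13 were higher and 6 lower (5480 to 6340 CPM in OIR, 6190 to 7110 CPM in normal).

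Several defining lymphocyte markers were at or near 0. Ncr1, Gzmb and Prf1 had 0 counts in all libraries, and Cd3e, Cd3g and Nkg7 had at most 3 counts over either group. Cd3d had 4 counts over the OIR and 2 over the normal libraries, and Cd8a had 107 counts over the OIR and 59 over the normal libraries and did not pass. Of the list of 14 T, NK and plasmacytoid dendritic cell markers 4 were tested and 1 was higher, Tcf4, which neurons also express; the list summed to 150 to 167 CPM in OIR and 100 to 135 CPM in normal libraries, of which Tcf4 alone had 142 to 156 CPM in OIR and 91.4 to 126 CPM in normal libraries. The other 13 summed to 8.21 to 12.8 CPM in OIR and 8.99 to 12.3 CPM in normal libraries. Monocyte and neutrophil markers were tested in 2 of 10 cases and 0 passed in edgeR (summed 31.4 to 42.5 CPM in OIR, 30.8 to 45.8 CPM in normal), with Ly6g at 0 throughout. Mmp9, which other cells also express, had 28.6 to 38.5 CPM in OIR and 29.1 to 43.7 CPM in normal libraries, and the other 9 summed to 2.83 to 4.01 CPM in OIR and 1.60 to 3.24 CPM in normal libraries. Of the untested ones, Plac8 had 13 counts over the OIR and 2 over the normal libraries, S100a9 15 and 5, and Ly6c2 0 and 5. Of 15 lens genes 0 passed in edgeR, and of 5 erythroid genes 4 were higher (summed 175 to 210 CPM in OIR, 60.3 to 90.3 CPM in normal).

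**Figure D5:**
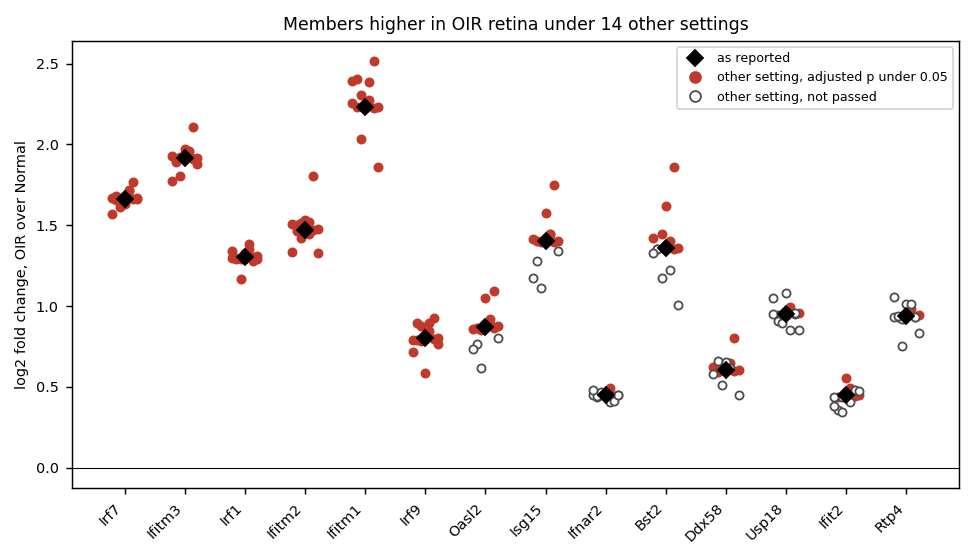
Log2 fold change of the 14 genes higher in OIR retina as reported (black) and under 14 other settings, filled where the adjusted p stayed under 0.05. Irf7, Ifitm3, Irf1, Ifitm2, Ifitm1 and Irf9 stay filled throughout, and the other 8 keep a positive sign but open in at least 4 settings.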

How the data were processed

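The authors deposited raw counts per gene for 6 libraries of whole retina; per the labels' protocols, RNA was extracted with TRIzol and libraries were made with a NEBNext Ultra RNA kit. The submitters' processing notes name CASAVA 1.8, fastp, HISAT2 2.0.5, featureCounts 1.5.0-p3, DESeq2 1.20.0 and mm10; the annotation release and strand setting are absent from the sources used here, so reads of overlapping genes cannot be told apart. Columns were matched to sample titles by day and number, those without OIR in their name to the normal titles.

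EdgeR 4.0.16 (R 4.3.3; TMM, filterByExpr with minimum count 10 and total 15, glmQLFit and glmQLFTest, no covariate) was fitted to 17108 genes with Benjamini-Hochberg adjustment at 0.05; genes left out held 0.164% of counts. Standard errors are the log2 fold change over the square root of F, and 95% intervals use the fit's t quantiles. CPM and TPM were computed here. Tests were checked on simulated counts. Within each group, all pairs of libraries differed beyond counting error, at 7.2 to 23.1 chi-square units per degree of freedom. Alternatives were DESeq2 1.42.0, limma-voom (limma 3.58.1), other scalings and filters, a replicate block, sex, the fits without each library and a 0.01 threshold. Exon overlaps and copies came from GENCODE vM21 (blastn 2.17.0).

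The genes and lists were chosen with earlier results of these data known. Values by library are given for listed genes that passed and, in each role, for the one with the highest mean CPM and the largest change not passing; other lists give up to 6 passing genes with the smallest adjusted p, plus Ifnb1, Ifng, Socs1 and Socs3 whatever their values. Any others named were added after their values were seen, and some genes of these lists are not reported here.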

Additional observations from a re-analysis of the deposited data

How the results depend on the processing

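The 6 firmest calls (Irf1, Irf7, Irf9, Ifitm1, Ifitm2 and Ifitm3) held under all 14 other settings, and 0 listed genes were lower under any. The number higher was 12 with DESeq2 (27.9% of the listed genes tested, against 9.76% of all) and 11 with limma-voom (27.5% against 11.1%). With median-of-ratios size factors it was 14 (35% against 10.9%), and with library totals alone 16 (40% against 12.5%). It was 16 with no filter (36.4% against 7.56%) and 14 with the stricter filter (37.8% against 11.6%). With sex as a covariate it was 6 (15% against 9.42%). At an adjusted p under 0.01 it was also 6 of the 40 tested, against 1116 of all 17108 genes tested. It was 6 to 15 when 1 library was left out (14.3% to 37.5%, against 7.02% to 11.9%). Those fits gave 1237 (without Normal 3) to 2097 genes higher and 761 (without OIR 1) to 1734 lower over all genes, 19 to 32 other pathway genes higher and 0 to 3 lower, and 19 to 29 (without Normal 1) listed genes with separate groups. Fewer libraries separate more easily: OIR lay above normal for 25.9% of all genes without Normal 1 and for 21.4% to 25% without another library, against 18.7% with all. Genes lower over all were 860 without OIR 2 and 769 without Normal 3, and other pathway genes lower were 0 without OIR 2, OIR 3, Normal 1 or Normal 3. At an adjusted p under 0.01, 1116 genes were higher and 647 lower, and of other pathway genes 16 were higher and 0 lower. Other pathway genes lower were 1 with library totals alone and 0 with sex as a covariate. Signs of log2 changes turned when 1 library was left out for Stat2 (−0.066 to 0.079), Ifngr2 (−0.012 to 0.097), Ifit3 (−0.11 to 0.20) and Ifi44 (−0.52 to 0.63), and with sex as a covariate for Ifi44 (−0.076). With the replicate number as a replicate block, 10 listed genes were higher (25% against 9.82% of all) and 1 other pathway gene was lower. Deviations of same-numbered libraries correlated at 0.061, −0.18 and 0.071, and OIR 1 correlated best with Normal 2 (0.104). Every same-numbered pair differs in sex, so these correlations cannot decide whether the numbers pair the libraries. The cause of lost calls was not tested; fits without a library have fewer samples. Depth limits the low genes: the count minimum was 0.602 CPM.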
